A study of Saccharomyces cerevisiae with 90 samples.

Results

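The 10 genes described here encode permeases of the plasma membrane of Saccharomyces cerevisiae, budding yeast, that bring amino acids or small peptides into the cell. They are GAP1 (YKR039W), AGP1 (YCL025C), BAP2 (YBR068C), BAP3 (YDR046C), TAT1 (YBR069C), TAT2 (YOL020W), DIP5 (YPL265W), GNP1 (YDR508C), PTR2 (YKR093W) and HIP1 (YGR191W). They were chosen by name from the array's annotation, each is read by 1 probe set, and all 10 are among the 5449 genes tested. PTR2 was also chosen because it separated gelatin from agar, and BAP2 because it fell on SD agar against SD liquid, so those differences are given below as values without a test.

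The study asked how yeast cells respond to touch, by comparing RNA of cells on solid substrates with RNA of cells in liquid. It comprised 90 Affymetrix arrays in 29 groups, with 3 arrays in each group except for 6 of wild-type cells at 0 h on SD agar. Wild-type cells were sampled at 0 h in SD liquid and on SD agar. At 6 h they were sampled in SD liquid, on SD agar and on SD gelatin, and both in liquid and on agar in SLAD and in SG. By the usual meaning of these names, SD is a synthetic medium with glucose, SLAD holds little ammonium, and SG holds galactose in place of glucose. A further 9 strains were sampled at 6 h on SD agar and in SD liquid. These were labelled Kss1K42R, tec1 knockout, flo11 knockout, msb2 knockout, PGAL1-FLO11, pRS313, pRS313-STE11-4, pRS316 and pRS316-MSB2*, and cells labelled PGAL1-FLO11 were also sampled at 6 h in SG liquid and on SG agar. KSS1 encodes a MAP kinase of the filamentous growth pathway, TEC1 a transcription factor of that pathway, MSB2 a cell-surface mucin, STE11 a MAP kinase kinase kinase and FLO11 an adhesin. PGAL1 is the galactose-induced GAL1 promoter, and pRS313 and pRS316 are plasmids that carry HIS3 and URA3. The labels do not give the parent strain, the number of clones, or whether the arrays of a group came from separate cultures, so the p-values measure the spread between these arrays.

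Yeast takes up amino acids through a family of proton-coupled permeases that differ in what they carry and in what controls their genes. The SPS sensor at the plasma membrane detects outside amino acids and, through the factors Stp1 and Stp2, turns on AGP1, BAP2, BAP3, TAT1, TAT2, GNP1, DIP5 and PTR2. GAP1, the general amino acid permease, is instead held down on rich nitrogen sources by nitrogen catabolite repression, in which the GATA activators Gln3 and Gat1 are kept inactive. PTR2 imports di- and tripeptides and is repressed by Cup9, which peptides remove through the ubiquitin ligase Ubr1.

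The values are log2 signals after RMA, and a change is a difference of mean log2 signals, so levels are compared between groups and not between genes. A gene is said to rise or fall where the adjusted p of a limma fit over all 90 arrays was below 0.05. BAP3 lay below the background limit of its own array, set by probe sets outside the yeast gene table, on 74 of 90 arrays, and PTR2 did so on 1 array of wild-type cells in SG liquid. The other 8 genes were above it on every array. GAP1 and DIP5 in SLAD liquid, with arrays of 14.94 to 15.07 and of 15.16 to 15.30, lay at the top of the scale, where the 99th percentile of an array was 14.87 to 14.97. Array A of the gelatin group stood apart from the other gelatin arrays, with a root mean square distance from its group mean of 0.596 against at most 0.313 for any array outside that group. Array C of wild-type cells in SG liquid was the one at 0.313. Results that rest on either are given with and without it. The knockouts matched their labels, with TEC1 at 5.23 to 5.70, MSB2 at 4.10 to 5.33 and FLO11 at 6.12 to 7.28 in the strains that lack them. FLO11 in the arrays labelled PGAL1-FLO11 was 15.16 to 15.25 in SG and, in SD, 14.37 to 14.58 on agar and 10.33 to 11.07 in liquid. Wild-type FLO11 in SD was 14.76 to 14.88 on agar and 10.30 to 10.59 in liquid. The GAL1 promoter is repressed in glucose, so the near wild-type FLO11 levels of the SD arrays go against their label, and results in SD are those of cells labelled PGAL1-FLO11 whose strain was not checked further.

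Over the 29 group means, 7 of the 10 permeases had a wider range than at least 90.5% of all tested genes. The 7 include PTR2 and BAP2, which were chosen for differences between groups, so their ranges are not independent of that choice. PTR2 spanned 5.61, from 6.31 in msb2 knockout cells in SD liquid to 11.92 in wild-type cells in SLAD liquid. GAP1 spanned 5.08, DIP5 4.57, TAT2 4.47, BAP2 3.62, AGP1 3.04 and GNP1 2.96. The ranges of HIP1 and TAT1, 2.19 and 1.93, were the narrowest of the 9 other than BAP3, against a median of 1.28 for all tested genes. BAP3 has no measured range, since its low groups were below background.

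**Figure D1:**
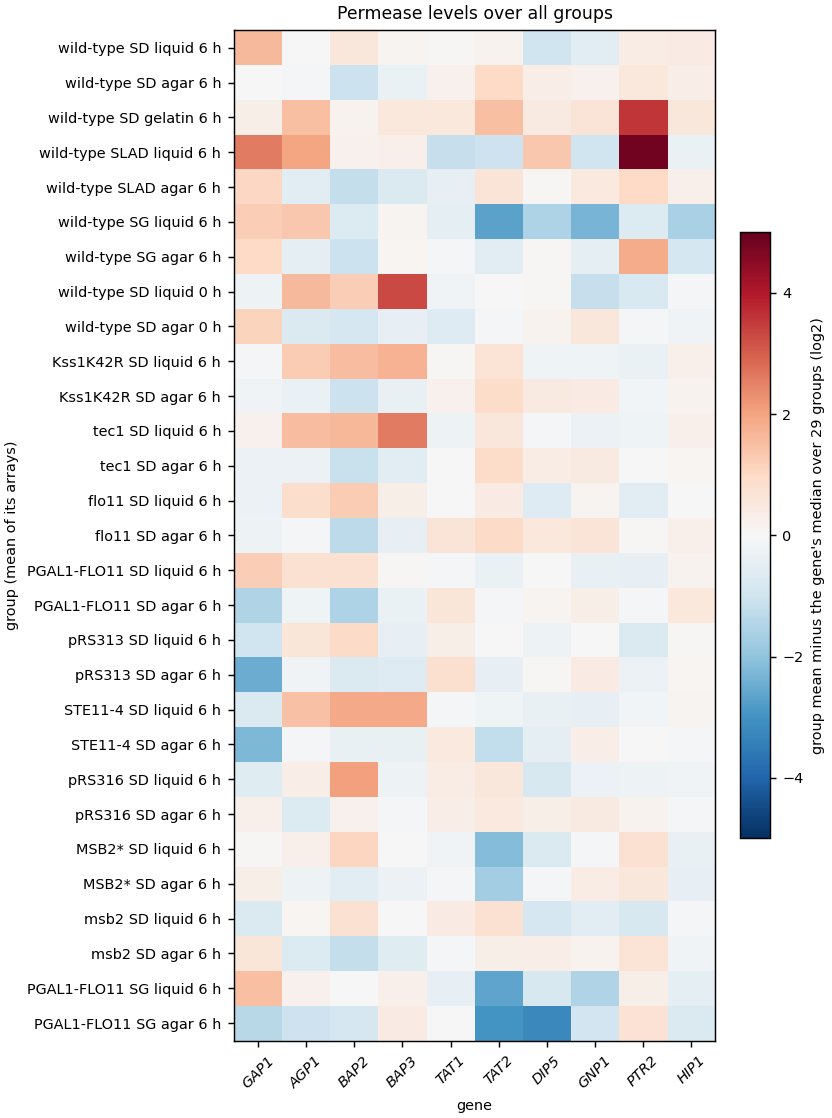
Mean log2 signal of each permease gene in each of the 29 groups, shown as the difference from that gene's median over the groups (red higher, blue lower); BAP3 was below background in most groups. PTR2 stands highest in wild-type SLAD liquid (11.92) and SD gelatin (10.68), and GAP1 is lowest in the pRS313 strain on SD agar (9.92).

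In wild-type cells at 6 h, growth on SD agar rather than in SD liquid went with less GAP1 and more DIP5, TAT2 and GNP1. GAP1, which carries most amino acids, was 13.94, 14.18 and 14.00 in liquid and 12.42, 12.23 and 12.55 on agar. The groups did not overlap, and GAP1 fell by 1.64 ± 0.29 (SE, adjusted p = 6.8e-06). DIP5, the glutamate and aspartate permease, was 12.61, 12.99 and 13.00 in liquid and 14.25, 14.13 and 14.21 on agar, a rise of 1.32 ± 0.19 (adjusted p = 6.5e-08). All 3 agar arrays were above all 3 liquid arrays. The 2 groups did not overlap for 67.4% of all tested genes.

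TAT2, the high-affinity tryptophan and tyrosine permease, rose by 0.82 ± 0.20 (adjusted p = 0.000592), from 11.36 ± 0.13 (SD, n = 3) in SD liquid to 12.17 ± 0.13 on agar. GNP1, the high-affinity glutamine permease, rose by 0.74 ± 0.25 (adjusted p = 0.0108), from 12.91 ± 0.28 to 13.65 ± 0.06, but without array B of SD liquid its change was 0.58 with an adjusted p of 0.0774. BAP2, a permease of leucine, isoleucine and valine, was 10.12, 10.55 and 10.60 in liquid and 8.75, 8.73 and 8.88 on agar, a difference of -1.64 that belongs to the choice of the gene. The differences of AGP1, TAT1, PTR2 and HIP1, -0.12 to 0.18, did not pass the test, and neither did BAP3, which was below background in both groups. Leaving out BAP2, 4 of 9 passed where 51.9% of all tested genes did, and 2 of 9 passed with at least a 2-fold change, as did 4.53% of all genes.

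**Figure D2:**
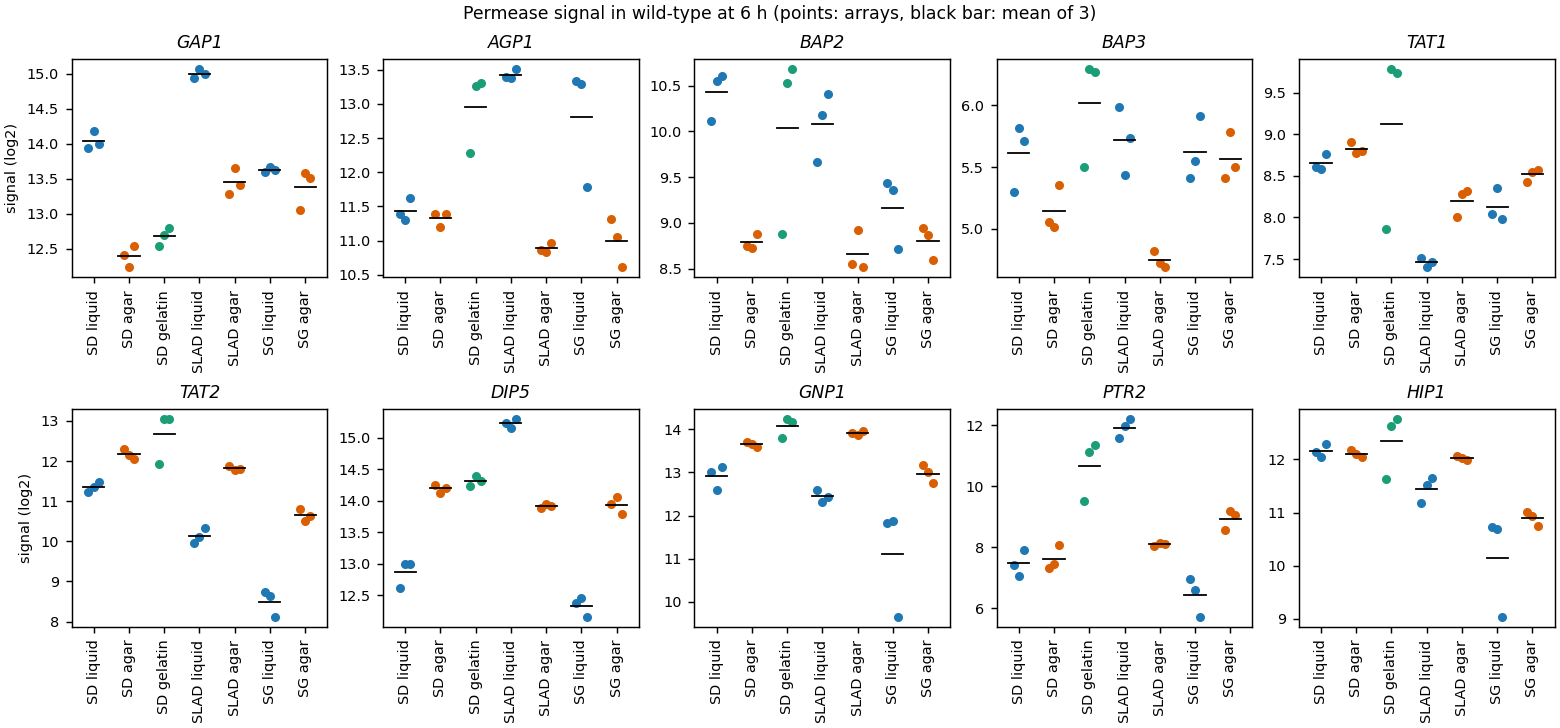
Log2 signal of the 10 permease genes in wild-type cells at 6 h by medium and substrate, with each array as a point (blue liquid, orange agar, green gelatin) and the mean of 3 as a bar. PTR2 is highest in SLAD liquid (11.92) and on gelatin (10.68), where array A is the low point (9.54), and array C of SG liquid is the low point for GNP1 (9.65) and HIP1 (9.03).

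Gelatin is a hydrolysed collagen and so a protein substrate, and agar is a polysaccharide. PTR2 was 9.54, 11.14 and 11.36 on gelatin, 7.32, 7.46 and 8.09 on agar and 7.43, 7.08 and 7.91 in liquid. The gelatin mean of 10.68 was 3.05 above agar and 3.21 above liquid, values that chose the gene. Agar and liquid arrays overlapped, with a difference of 0.15 ± 0.31 (adjusted p = 0.688). AGP1, a broad-specificity permease, had 12.28, 13.27 and 13.30 on gelatin, 11.39, 11.19 and 11.39 on agar and 11.39, 11.30 and 11.62 in liquid. It was 1.51 ± 0.30 higher on gelatin than in liquid (adjusted p = 6.9e-05) and 1.63 ± 0.30 lower on agar than on gelatin (adjusted p = 0.000103).

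Against SD liquid, gelatin and agar shared the direction of the GAP1, TAT2, DIP5 and GNP1 changes, with the same 3 liquid arrays in both comparisons. On gelatin GAP1 fell by 1.36 ± 0.29 (adjusted p = 0.000208), and TAT2, DIP5 and GNP1 rose by 1.32 ± 0.20, 1.44 ± 0.19 and 1.16 ± 0.25 (adjusted p = 3.5e-07, 1.2e-08 and 0.000196). Leaving out PTR2, 5 of 9 permeases passed, each with at least a 2-fold change, where 37.2% of all genes passed and 3.89% did so at that size. Between agar and gelatin, leaving out PTR2 and BAP2, 1 of 8 passed, namely AGP1 with at least a 2-fold change, against 12.4% of all genes at any size and 0.881% at that size. BAP2 was 8.88, 10.53 and 10.68 on gelatin, so that array A lay at the level of the agar arrays and the other arrays at that of liquid, and its agar minus gelatin difference of -1.25 rests on the SD agar arrays for which the gene was chosen and is not tested.

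Array A decided several of these values. Without it, and with the same genes left out, 5 of 8 permeases passed between agar and gelatin and 6 of 9 between gelatin and liquid. TAT1, a permease of tyrosine, tryptophan and valine, was 7.86 on array A and 9.79 and 9.74 on the other gelatin arrays. Without array A it was 1.11 higher on gelatin than in liquid (adjusted p = 4.2e-08) and 0.94 lower on agar than on gelatin (-0.94, adjusted p = 1.6e-06). TAT2 and HIP1, the histidine permease, then also fell between gelatin and agar, by 0.89 (adjusted p = 0.000144) and 0.60 (adjusted p = 0.0284). In a fit of the arrays of each comparison alone, in which the spread of the gelatin arrays is not shared with other groups, 2 of these 9 passed between gelatin and liquid, GAP1 and DIP5, and 0 of these 8 between agar and gelatin, where AGP1 had an adjusted p of 0.292.

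In SLAD all 10 permeases differed between agar and liquid, 7 of them at least 2-fold, where 72.9% and 24% of all tested genes did. The liquid cells had more of the peptide permease, the broad-specificity permeases and the acidic amino acid permease, and the agar cells more TAT1, TAT2, GNP1 and HIP1. PTR2 was 11.57, 11.98 and 12.22 in SLAD liquid and 8.04, 8.16 and 8.12 on SLAD agar, a change of -3.82 ± 0.31 on agar (adjusted p = 8.6e-18). AGP1 was 13.39, 13.38 and 13.51 in liquid and 10.87, 10.83 and 10.97 on agar, a fall by 2.54 ± 0.30 (adjusted p = 2.8e-11). No array of one substrate reached the other for any of the 10 genes, as held for 81.4% of all tested genes.

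GAP1 fell on SLAD agar by 1.55 ± 0.29, BAP2 by 1.43 ± 0.27 and DIP5 by 1.31 ± 0.19 (adjusted p of 4.3e-06, 3.0e-06 and 9.3e-09). GAP1 and DIP5 in SLAD liquid were at the top of the scale. BAP3, a branched-chain amino acid permease, was 5.44 to 5.99 in liquid and 4.69 to 4.82 on agar, at or below the background limit, so no fold is given for its call (adjusted p = 0.011), which was lost without array A of SLAD liquid (adjusted p = 0.0511). TAT2 rose by 1.69 ± 0.20, GNP1 by 1.47 ± 0.25 and TAT1 by 0.74 ± 0.21 (adjusted p of 2.6e-11, 4.6e-07 and 0.00136). HIP1 rose by 0.58 ± 0.23 (adjusted p = 0.0229), a call lost without array A of SLAD agar (0.56, adjusted p = 0.054) or array A of SLAD liquid (0.44, adjusted p = 0.121).

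In SG the peptide permease went the other way. PTR2 was 6.97, 6.62 and 5.72 in SG liquid and 8.58, 9.19 and 9.06 on SG agar, a rise on agar by 2.51 ± 0.31 (adjusted p = 9.8e-11). TAT2 rose from 8.75, 8.64 and 8.11 in liquid to 10.80, 10.51 and 10.64 on agar, by 2.15 ± 0.20 (adjusted p = 8.6e-15). DIP5 rose by 1.59 ± 0.19 (adjusted p = 5.0e-11), and AGP1 fell by 1.81 ± 0.30 (adjusted p = 4.3e-07). GNP1 was 11.83, 11.86 and 9.65 in liquid and rose by 1.86 ± 0.25 on agar (adjusted p = 1.8e-09), or by 1.13 without array C of SG liquid (adjusted p = 6.9e-07). HIP1 was 10.73, 10.70 and 9.03 in liquid, and its rise of 0.74 ± 0.23 (adjusted p = 0.0043) became 0.18 without array C (adjusted p = 0.461). In all, 6 of 10 passed against 64.6% of all genes, and 5 of 10 with at least a 2-fold change against 15.7%.

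The agar effect, meaning the agar minus liquid difference, was itself compared between media. That of PTR2 was lower in SLAD than in SD (-3.97 ± 0.43) and higher in SG than in SD by 2.35 ± 0.43. Both PTR2 differences use the wild-type SD agar arrays, which took part in the choice of that gene against gelatin, and are given without a test. DIP5 changed sign between media, from 1.32 in SD to -1.31 in SLAD, and the difference was -2.63 ± 0.27 (adjusted p = 4.8e-13). The agar effect of AGP1 was below that in SD by 2.42 in SLAD and by 1.69 in SG (-2.42 and -1.69, adjusted p = 2.0e-06 and 0.000738). For TAT2 it was above that in SD in both media, by 0.87 and 1.33 (adjusted p = 0.00755 and 7.1e-05). Of the 20 such differences, 11 passed, where 51.3% of all genes passed for SLAD and 47.7% for SG. The 11 include PTR2 in both media and BAP2 in SG, whose value uses its fall on SD agar.

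The media were also compared on one substrate. In liquid, SLAD raised PTR2 over SD by 4.45 ± 0.31, DIP5 by 2.36 ± 0.19, AGP1 by 1.99 ± 0.30 and GAP1 by 0.96 ± 0.29 (adjusted p of 1.4e-20, 1.7e-17, 4.1e-08 and 0.00343). TAT2, TAT1 and HIP1 fell by 1.22, 1.19 and 0.72 (adjusted p of 2.7e-07, 1.3e-06 and 0.00602), and BAP2, BAP3 and GNP1 did not pass. This made 7 of 10, against 63.4% of all genes, and 5 of 10 with at least a 2-fold change, against 16.7%. On agar only GAP1 passed between SLAD and SD, at 13.29, 13.66 and 13.41 in SLAD against 12.42, 12.23 and 12.55 in SD. Its rise of 1.05 ± 0.29 (adjusted p = 0.0412) was 1 call in 10, where 1.78% of all genes passed, and it did not pass in any of the 6 fits that left out 1 of these arrays (0.95 to 1.14, largest adjusted p = 0.205).

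TAT2, HIP1 and GNP1 were lower in galactose medium on both substrates. TAT2 was lower in SG than in SD by 2.85 ± 0.20 in liquid (-2.85, adjusted p = 1.8e-20) and by 1.52 ± 0.20 on agar (-1.52, adjusted p = 1.5e-09). HIP1 fell by 2.01 in liquid and 1.21 on agar (adjusted p = 1.1e-11 and 9.5e-06), and GNP1 by 1.80 and 0.68 (adjusted p = 2.5e-09 and 0.0151). Without array C of SG liquid the TAT2, HIP1 and GNP1 values in liquid were -2.66, -1.45 and -1.07. Without array C of SG agar the GNP1 value on agar was -0.57 with an adjusted p of 0.078. PTR2 fell in SG liquid by 1.04 ± 0.31 (adjusted p = 0.00179), a fall not called without array C of SG liquid (-0.68, adjusted p = 0.0575). On agar PTR2 was higher in SG by 1.32 ± 0.31. The PTR2 value on agar uses the SD agar arrays that took part in the choice of the gene and is given without a test.

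The remaining permeases moved less evenly with galactose. On SG agar GAP1 rose by 0.98 ± 0.29 (adjusted p = 0.00314), whereas in liquid its change of -0.41 did not pass. In liquid AGP1 rose by 1.36 ± 0.30 (adjusted p = 5.2e-05), and TAT1 and DIP5 fell by 0.52 and 0.54 (adjusted p = 0.0208 and 0.00881). BAP2 was lower there by 1.26 ± 0.27, a value that uses the SD liquid arrays of its choice and is given without a test. The count, BAP2 included, was 8 of 10 in liquid against 78% of all genes. It was 5 of 10 without array C of SG liquid, when PTR2, TAT1 and DIP5 no longer passed (adjusted p = 0.0575, 0.0811 and 0.0517). On agar it was 5 of 10 against 62.5%, with PTR2 among the 5.

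Across the 10 strains BAP2 was lower on SD agar than in SD liquid each time, from -1.64 in wild-type to -2.74 in tec1 knockout cells, and no agar array reached a liquid array of its own strain. Single agar arrays of the 10 strains were 8.22 to 10.33 and single liquid arrays 10.12 to 12.19. In wild-type cells at 0 h BAP2 already had a mean of 9.03 on SD agar and 11.07 in SD liquid. These BAP2 values belong to the choice of the gene and are left untested. AGP1 was also lower on agar in every strain, and fell in 7 of 10, from -0.12 in wild-type (adjusted p = 0.763) to -1.81 in tec1 knockout cells (adjusted p = 1.9e-06). Of these AGP1 calls, that of msb2 knockout cells was lost in 5 of 6 fits without 1 array and those of flo11 knockout cells and cells labelled PGAL1-FLO11 in 1 fit each. GNP1 was higher on agar in every strain with no overlap, by 0.40 to 0.75, and rose in 7 of 10, although each of these 7 calls was lost in at least 1 fit without 1 array. The share of all tested genes that did not overlap between agar and liquid was 67.4% in wild-type, 65.6% in Kss1K42R, 63.5% in tec1 knockout, 47.7% in flo11 knockout and 55.1% in msb2 knockout cells. It was 55% in PGAL1-FLO11, 62.2% in pRS313, 44% in STE11-4, 59.4% in pRS316 and 47.4% in MSB2* cells.

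DIP5 rose on agar in 7 of 10 strains, by up to 1.32 in wild-type cells, but its changes of -0.13 in STE11-4, 0.14 in PGAL1-FLO11 and 0.33 in pRS313 cells did not pass. The DIP5 call in tec1 knockout cells was lost in 5 of 6 fits without 1 array and that in MSB2* cells in 3. BAP3 fell on agar in the Kss1K42R, tec1 knockout and STE11-4 strains and in no other, each time from a liquid level above background to an agar level below it. HIP1 passed in none of the 10 strains, with changes of -0.21 to 0.35. TAT2 rose in 2 of 10, wild-type and flo11 knockout cells (0.82 and 0.56), and fell in 2, STE11-4 and msb2 knockout cells (-0.99 and -0.50). It did not pass in the other 6. The TAT2 calls in flo11 and msb2 knockout cells were lost in 3 and 4 of 6 fits without 1 array. TAT1 rose in the flo11 knockout, PGAL1-FLO11 and STE11-4 strains by 0.69, 0.72 and 0.54 and fell in msb2 knockout cells by 0.51. Of these TAT1 calls, that of cells labelled PGAL1-FLO11 held in every fit without 1 array. For the 9 strains other than wild-type, 35 of 81 values passed, leaving out BAP2. The share of all tested genes that passed was 43.4% in Kss1K42R, 41.4% in tec1 knockout, 31.5% in flo11 knockout, 41.5% in msb2 knockout, 42.5% in PGAL1-FLO11, 20% in pRS313, 31.8% in STE11-4, 42.2% in pRS316 and 17.8% in MSB2* cells.

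**Figure D3:**
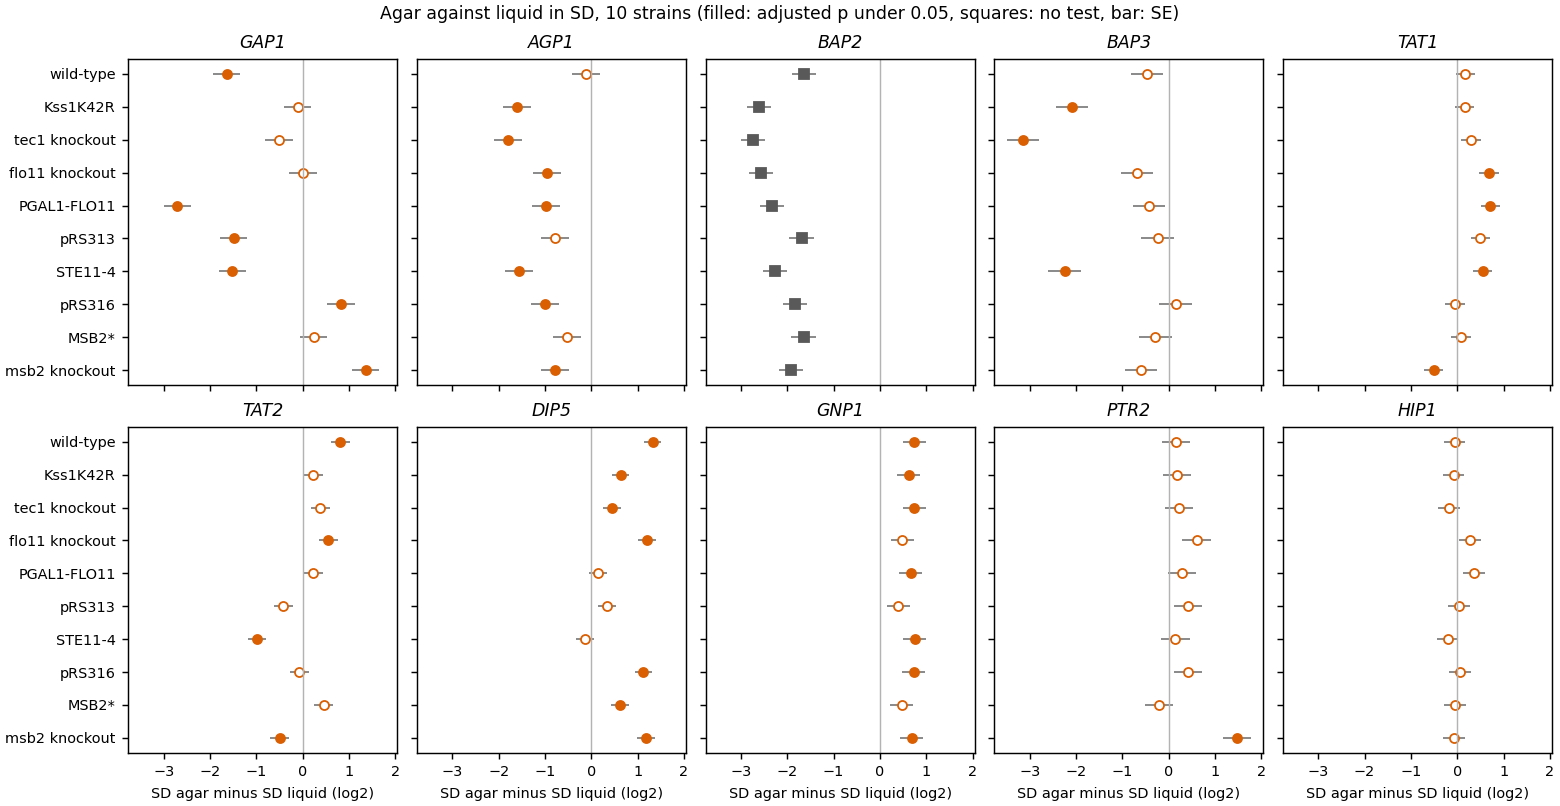
Difference of mean log2 signal, SD agar minus SD liquid, for each permease gene in 10 strains, with the standard error of the fit as a bar. BAP2 (squares, no test) is below 0 in each strain, GNP1 is above 0 in each, BAP3 values are fits to agar arrays below background, and GAP1 runs from -2.70 in PGAL1-FLO11 to 1.36 in msb2 knockout cells.

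GAP1 took opposite directions on agar in different strains. It fell by 2.70 ± 0.29 in cells labelled PGAL1-FLO11, whose FLO11 level in SD goes against the label, by 1.52 in STE11-4 cells and by 1.49 in pRS313 cells (adjusted p = 2.1e-11, 3.8e-05 and 9.45e-05), and rose by 1.36 ± 0.29 in msb2 knockout cells (adjusted p = 0.000162). Its rise of 0.83 ± 0.29 in pRS316 cells (adjusted p = 0.02) was not called without array B of SD liquid of that strain (adjusted p = 0.0531). The changes in Kss1K42R, tec1 knockout, flo11 knockout and MSB2* cells, -0.51 to 0.24, did not pass. Against the wild-type agar effect of -1.64, the effect was higher by 3.0 ± 0.42 in msb2 knockout cells (adjusted p = 1.6e-07) and by 2.47 ± 0.42 in pRS316 cells (adjusted p = 8.8e-06). Of all tested genes, 23.1% and 20.4% passed for these differences from wild-type, and 6.7% did for Kss1K42R, 10.5% for tec1 knockout, 17.5% for flo11 knockout, 10% for PGAL1-FLO11 and 13.8% for pRS313 cells. Between plasmid strains the share was 9.56% for pRS316 against pRS313, 4.55% for STE11-4 against pRS313, 1.73% for MSB2* against pRS316 and 7.71% for msb2 knockout against pRS316.

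Much of this spread lay in liquid. GAP1 in SD liquid was 13.94 to 14.18 in wild-type and 13.14 to 13.92 in cells labelled PGAL1-FLO11, and 11.18 to 12.85 on the 24 arrays of the other 8 strains. The arrays of those 8 strains did not reach the wild-type arrays or those labelled PGAL1-FLO11. In the 7 comparisons of a strain with wild-type in SD liquid, 39.2% to 71% of all tested genes did not overlap. The falls against wild-type ran from 1.41 in tec1 knockout to 2.63 in pRS313 cells (-1.41, adjusted p = 0.000265, to -2.63, adjusted p = 1.0e-10), and 6 of the 7 strains compared with wild-type passed. The change of -0.42 in cells labelled PGAL1-FLO11 did not pass. These comparisons share the same 3 wild-type liquid arrays, so they are not independent of each other.

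On SD agar GAP1 was lowest with the pRS313 plasmid, at 9.87, 9.95 and 9.94 in pRS313 cells and 9.93 to 10.31 in STE11-4 cells, which carry STE11-4 on that plasmid. Cells labelled PGAL1-FLO11 followed at 10.98, 10.83 and 10.93. The single agar arrays of the other 7 strains lay between 11.74 and 13.33. Against wild-type, GAP1 on agar was lower by 2.48 ± 0.29 in pRS313 cells (-2.48, adjusted p = 2.6e-09) and by 1.48 ± 0.29 in cells labelled PGAL1-FLO11 (-1.48, adjusted p = 0.000764). The pRS316 strain had 2.71 ± 0.29 more than pRS313 (adjusted p = 3.7e-11), while STE11-4 differed from pRS313 by 0.23 and did not pass.

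Among the 10 strains in SD, TAT2 had its lowest means in the MSB2* strain, both in liquid and on agar. It was 8.47, 9.29 and 9.24 in liquid and 9.20, 9.76 and 9.40 on agar with MSB2*, against 11.32, 11.97 and 11.92 and 11.66, 11.63 and 11.71 with pRS316 alone. No MSB2* array reached a pRS316 array, and the differences were -2.74 ± 0.20 in liquid and -2.21 ± 0.20 on agar (adjusted p = 6.0e-18 and 5.0e-14). Over the 11 comparisons between strains, 31.9% to 71% of all tested genes did not overlap in liquid and 26.8% to 57.6% on agar. On agar TAT2 was the only permease that passed in this comparison, where 9.58% of all genes did. In liquid BAP2 was lower by 0.97 ± 0.27 (-0.97), given without a test since SD liquid arrays took part in its choice. PTR2 was higher in liquid by 1.0 ± 0.31 (adjusted p = 0.0129), with a background of 20.3%. The PTR2 call was lost in 4 of the 6 fits without 1 array, up to an adjusted p of 0.0905.

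STE11-4 cells had less TAT2 than pRS313 cells on agar, at 10.02, 9.75 and 10.14 against 10.78, 10.76 and 10.76. The fall of 0.80 ± 0.20 (adjusted p = 0.00865) was 1 call in 10, against 3.67% of all genes, and was not called without array B of the STE11-4 agar group (-0.69, adjusted p = 0.108). In pRS313 cells and cells labelled PGAL1-FLO11 on agar TAT2 was below wild-type by 1.41 and 1.10 (-1.41 and -1.10, adjusted p = 3.2e-07 and 0.000188). In the 8 strains other than MSB2* and STE11-4, single agar arrays of TAT2 were 10.76 to 12.33.

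BAP2 had its highest mean among the 10 strains with pRS316, on both substrates. It was 11.97, 11.94 and 11.85 in liquid and 9.83, 10.09 and 10.33 on agar, above all wild-type arrays on each substrate. The difference from wild-type was 1.49 ± 0.27 in liquid and 1.30 on agar. Both rest on the SD liquid or SD agar arrays for which the gene was chosen and are given without a test. Against pRS316, msb2 knockout cells had less BAP2 by 1.31 in liquid and by 1.39 on agar (-1.31 and -1.39, again without a test). Against wild-type the same cells differed by 0.19 in liquid and by -0.10 on agar, also without a test. The plasmid marker URA3 was 13.25 to 13.59 on the pRS316 arrays and 4.25 to 4.66 on those of msb2 knockout cells, near the 4.26 to 4.90 of the strains without that plasmid, so the plasmid and the deletion cannot be told apart in the comparison of msb2 knockout with pRS316.

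BAP3 was above background in few groups. In SD liquid it was 7.58, 8.22 and 8.41 in tec1 knockout cells and 6.55, 6.96 and 8.10 in Kss1K42R cells, against 5.30, 5.82 and 5.72 in wild-type cells, below background. This made it at least 3.84-fold higher in tec1 knockout and at least 2.10-fold higher in Kss1K42R cells (adjusted p = 2.6e-07 and 0.000642). In STE11-4 liquid it was 6.10, 6.55 and 9.45, at least 2.68-fold above pRS313 (adjusted p = 6.3e-07), a value that array C carries, since without it the bound was at least 1.30-fold (adjusted p = 0.000443). Fitted on the arrays of that comparison alone, the call was lost (adjusted p = 0.191). The 21 liquid arrays of the other 7 strains were 4.95 to 6.00.

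In the same tec1 knockout and Kss1K42R liquid samples AGP1, BAP2 and DIP5 were also higher than in wild-type, while GAP1 was lower (-1.41 and -1.72, adjusted p = 0.000265 and 1.3e-05). AGP1 rose by 1.53 and 1.28 (adjusted p = 0.000121 and 0.0014) and DIP5 by 0.91 and 0.80 (adjusted p = 0.000251 and 0.0015). BAP2 was higher by 1.08 and 0.96, given without a test since SD liquid arrays took part in its choice. Without array C of Kss1K42R liquid the BAP2 difference of that strain was 0.76. On SD agar, in contrast to 5 of 10 calls for each of these strains in liquid, BAP2 included, 0 of 10 permeases passed against wild-type. Of all tested genes, 5.82% passed at the same adjusted p for Kss1K42R and 6.68% for tec1 knockout cells on agar, and 22.8% and 25% in liquid. At an unadjusted limma p below 0.05 the permease count on agar was 1 for Kss1K42R, namely PTR2, and 0 for tec1 knockout cells. The flo11 knockout also had 0 of 10 on agar, where 1.05% of all genes passed at an adjusted p below 0.05. At an unadjusted p its permease count was 0 of 10.

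Over the 11 comparisons between strains on each substrate, 13 of 110 values passed on SD agar and 35 of 110 in SD liquid. They include pRS316 against pRS313, and msb2 knockout cells against both wild-type and pRS316. Several share arrays, so they are not independent. Besides the shares of all tested genes given above, 1.43% passed on agar and 22.3% in liquid for PGAL1-FLO11, 8.68% and 49.6% for pRS313, 31.5% and 40.1% for pRS316 and 31.6% and 27.6% for msb2 knockout cells, each against wild-type. For pRS316 against pRS313 they were 26.8% and 15.2%, and for msb2 knockout against pRS316 12.1% and 14.6%. In liquid they were 46.8% for flo11 knockout against wild-type and 16.2% for STE11-4 against pRS313. On agar the 13 were 1 rise and 2 falls of GAP1, 1 rise and 6 falls of TAT2, and 2 rises and 1 fall of BAP2. The BAP2 values rest on SD arrays for which the gene was chosen, as do its 6 rises and 2 falls among the 35 in liquid. PTR2 in SD liquid was below wild-type in pRS313, msb2 knockout and flo11 knockout cells, by 1.07, 1.16 and 0.90 (-1.07, -1.16 and -0.90, adjusted p = 0.00315, 0.00404 and 0.0135), of which the pRS313 call held in every fit without 1 array, the msb2 call was lost in 1 fit and the flo11 call in 2. In msb2 knockout cells PTR2 was 6.13, 6.73 and 6.08 in liquid and 7.50, 7.64 and 8.22 on agar, and it rose on agar by 1.48 ± 0.31 (adjusted p = 8.4e-05). No other strain passed for PTR2 between SD agar and liquid, and its agar effect in msb2 knockout cells was 1.32 ± 0.43 above that of wild-type. The wild-type effect uses the SD agar arrays that took part in the choice of PTR2, so this difference is given without a test.

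On SG agar the cells labelled PGAL1-FLO11 had less of several permeases than wild-type cells. DIP5 was 11.34, 10.24 and 10.38 against 13.94, 14.05 and 13.78, a difference of -3.27 ± 0.19 (adjusted p = 5.7e-22). TAT2 was 8.45, 8.03 and 8.15 against 10.80, 10.51 and 10.64, a difference of -2.44 ± 0.20 (adjusted p = 6.3e-15). GAP1 was 11.69, 10.67 and 10.65 against 13.06, 13.58 and 13.51, a difference of -2.38 ± 0.29 (adjusted p = 3.4e-08).

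With PTR2, lower by 1.13 ± 0.31 on SG agar (-1.13, adjusted p = 0.0289, up to 0.203 without 1 array), DIP5, TAT2 and GAP1 made 4 of 10 that passed, where 1.84% of all genes did. In SG liquid 6 of 10 passed against 65.1% of all genes, or 3 of these 6 without array C of wild-type SG liquid, when GNP1, BAP2 and PTR2 no longer passed (adjusted p = 0.661, 0.163 and 0.105). AGP1 was among the 6, lower by 1.14 (-1.14, adjusted p = 0.000726). That AGP1 group held 12.35, 10.34 and 12.28, and without array B its change was -0.49 and did not pass (adjusted p = 0.132). DIP5, which rose on SG agar in wild-type cells, fell there by 2.42 ± 0.19 in cells labelled PGAL1-FLO11 (adjusted p = 2.2e-16), and the difference between the strains was -4.01 ± 0.27 (adjusted p = 4.4e-20), a test that 54% of all genes passed.

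During 6 h in SD liquid wild-type cells gained GAP1 and lost BAP3. GAP1 went from 13.10, 11.26 and 12.08 at 0 h to 13.94, 14.18 and 14.00, a rise of 1.89 ± 0.29 (adjusted p = 2.6e-07). BAP3 was 9.39, 8.54 and 8.40 at 0 h, its highest level in the study, and below background at 6 h, at least 6.26-fold lower (adjusted p = 3.7e-11). AGP1 and DIP5 fell by 1.61 and 1.04 (adjusted p = 9.6e-06 and 5.9e-06), and PTR2 rose by 1.12 (adjusted p = 0.00156). GNP1 rose by 0.64, a call that was lost in 4 of the 6 fits without 1 array. BAP2 was lower at 6 h by 0.65, a value that uses SD liquid arrays of its choice and is given without a test. The count, BAP2 included, was 7 of 10 against 55.8% of all genes.

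On SD agar from 0 h to 6 h, GAP1 moved the other way. At 0 h it ranged from 12.27 to 14.08 with a median of 13.77 over the 6 arrays, and at 6 h it was 12.42, 12.23 and 12.55, a fall by 1.13 ± 0.26 (adjusted p = 0.000522). With the 0 h arrays D to F alone the fall was 0.71 and did not pass (-0.71, adjusted p = 0.0655), and with A to C alone it was 1.54 (-1.54, adjusted p = 6.1e-06). TAT2 rose by 1.06 ± 0.17, from a 0 h range of 10.96 to 11.39 to 12.06 or more at 6 h, and TAT1 by 0.86 ± 0.18, from 7.55 to 8.23 to 8.78 or more (adjusted p = 2.2e-06 and 0.000188). These were 3 of 10, against 22.1% of all genes. The substrates already had unlike means at 0 h, a difference that was not tested. BAP2 was 9.03 on agar and 11.07 in liquid, and AGP1 10.72 and 13.05. BAP3 was below background on agar and 8.78 in liquid, and GAP1 was 13.52 and 12.15. BAP2, AGP1 and BAP3 did not pass between 0 h and 6 h on agar.

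Other genes of amino acid and peptide uptake were counted from lists of known members. Of 10 genes of the SPS sensor and its factors, 7 fell and 1 rose on SD agar against liquid in wild-type cells, where 51.9% of all tested genes passed, none by 2-fold, led by ASI1 at -0.74 and SSY1 at -0.47. SSY1 encodes the sensor itself and ASI1 an inner nuclear membrane protein that keeps the pathway's factors off. Their median change was -0.34 against 0.09 for all tested genes. Of 11 other plasma membrane permeases, 8 fell and none rose, against the same 51.9%, with a median of -1.28. They were led by MUP1, the high-affinity methionine permease, at -2.77 and SAM3, for S-adenosylmethionine, at -1.78.

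Of 6 other peptide transport genes, again against 51.9%, 2 fell and 2 rose, with OPT1, an oligopeptide transporter, at -2.32 and the ubiquitin ligase gene UBR1 at 0.23. Of 5 genes of GATA factors and their regulator in nitrogen catabolite repression, DAL80, a repressor that is itself a target of that system, fell by 2.70 and GLN3 and URE2 rose by 0.32 and 0.34, where 51.9% of all genes passed. In SLAD liquid against SD liquid, where GAP1, AGP1, DIP5 and PTR2 rose, 5 of the 11 other permeases rose and 5 fell, where 63.4% of all tested genes passed. PUT4, for proline, and UGA4, for GABA, rose by 3.86 and 3.42, and MUP1 and MMP1, for methionine compounds, changed by -3.75 and -3.44. UBR1 and UBR2 rose there by 1.02 and 1.33.

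Of 9 genes of permease trafficking 7 rose and 1 fell in that comparison, against the same 63.4% of all genes, with the arrestin-like genes ECM21 and ALY2, which direct permeases to removal, up by 1.23 and 1.01. On SD agar against liquid 2 rose and 3 fell, none by 2-fold. All 7 vacuolar AVT genes, whose proteins move amino acids across the vacuolar membrane, fell on SD agar and on SLAD agar against liquid, where 51.9% and 72.9% of all genes passed, with AVT4 at -1.29 in SD and AVT6 at -2.12 in SLAD. In pRS313 cells in SD liquid, where GAP1 was 2.63 below wild-type (-2.63), DAL5, DAL80 and PUT4 also fell (-3.90, -3.77 and -2.02), where 49.6% of all tested genes passed. In MSB2* cells PUT4 was above pRS316 by 2.27 on agar and 2.69 in liquid, where 9.58% and 20.3% of all genes passed. These are single genes from different lists, whose other members are not given for these comparisons, and a shared pattern was not tested.

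Over the 29 group means, described here without a test since groups share strains, media and controls, each permease had its own closest genes. DAL80 and DAL3 were closest to GAP1 (Pearson r = 0.79 and 0.74), HSP150 and RTC2 to BAP2 (0.87 and 0.87), MLS1 and SHC1 to PTR2 (0.74 and 0.74) and PEX7 and YBP1 to AGP1 (0.83 and 0.82). YJL047C-A and PAP2 were closest to TAT2 (0.87 and 0.83), DPH2 and YNL095C to HIP1 (0.92 and 0.92), and YLR108C and EFM4 to GNP1 (0.90 and 0.88). TOS3 was closest to BAP3 (0.85), MRS1 to TAT1 (0.81) and PUS6 to DIP5 (0.76). Among the members themselves, TAT2 and HIP1 had r = 0.75 and AGP1 and BAP3 r = 0.67, while GAP1 and TAT1 had r = -0.76.

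In the order of group means most neighbours overlapped. For PTR2 the 4 highest groups, wild-type in SLAD liquid (11.92 ± 0.33), on SD gelatin (10.68 ± 0.996), on SG agar (8.94 ± 0.32) and on SLAD agar (8.10 ± 0.06), each lay apart from the group next below, and the other neighbours overlapped. For BAP2 1 of 28 neighbouring pairs was apart, that of flo11 knockout cells and cells labelled PGAL1-FLO11 on SD agar (8.57 ± 0.14 and 8.30 ± 0.08). For TAT2 the only pair apart was wild-type on SG agar (10.65 ± 0.15) and wild-type in SLAD liquid (10.14 ± 0.19) next below. For GAP1 5 of 28 pairs were apart, the first being wild-type SLAD liquid (14.94 to 15.07) from wild-type SD liquid (13.94 to 14.18).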

How the data were processed

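The 90 Affymetrix arrays were used as deposited: log2 values from RMA, per the submitters' processing notes, which remove background, normalise the arrays and combine the probes of a set. Which RMA program and settings were used is not stated by any label. Of 10928 probe sets, 7244 name 1 gene and 1 names several. Genes read by several sets (47) took 1 of them, leaving 5449 genes. Groups came from the sample labels. limma 3.58.1 in R 4.3.3 fitted 1 mean per group over all arrays, and p-values were adjusted by Benjamini and Hochberg over the 5449 genes in each comparison. With 3 arrays against 3, an exact permutation test of a single gene cannot go below 0.1, so none is given. The background limit of an array is the 95th percentile of 1746 probe sets outside the yeast gene table, 5.72 to 6.33. All 10 members are named, with up to 4 genes of each other list, those with the largest change among the ones that passed, and the genes closest to each member by Pearson r. Members and lists were chosen with earlier results of these data known. Replicate letters were checked for pairing: all 3 same-letter pairs correlated above 0.1 in 3 of 47 comparisons, so no block was used. Array number limits the precision. The fit was tested on simulated data.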

Additional observations from a re-analysis of the deposited data

Results flagged for a closer look

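Of 140 differences of the agar effect (agar minus liquid, log2) between media or strains, 36 passed the limma test of the difference itself and are given here as values. Those of BAP2, counted among the 36, rest partly on its fall on SD agar, for which the gene was chosen. Those of PTR2 against the wild-type SD effect, also counted, use the SD agar arrays that took part in its choice against gelatin. Those of BAP3 are fitted values with no measured size, since the agar groups and the control groups were below background. In the group of 6 arrays, 0 of 10 permeases had a far array.

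Between media in wild-type cells, the SLAD effect minus the SD effect was -2.42 for AGP1, 0.87 for TAT2, -2.63 for DIP5 and -3.97 for PTR2. The SG effect minus the SD effect was 1.39 for GAP1, -1.69 for AGP1, 1.27 for BAP2, 1.33 for TAT2, 1.12 for GNP1, 2.35 for PTR2 and 0.80 for HIP1. The GNP1 and HIP1 values were 0.38 and 0.24 without array C of wild-type SG liquid (adjusted p = 0.229 and 0.518), and the HIP1 call was lost in 7 of 12 fits without 1 array.

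Between strains on SD, the Kss1K42R effect minus that of wild-type was 1.53 for GAP1, -1.49 for AGP1 and -1.62 for BAP3. For tec1 knockout cells it was -1.69 for AGP1, -1.10 for BAP2, -2.68 for BAP3 and -0.87 for DIP5, and for flo11 knockout cells 1.65 for GAP1. For cells labelled PGAL1-FLO11 it was -1.18 for DIP5, for pRS313 -1.23 for TAT2 and -0.99 for DIP5, and for pRS316 2.47 for GAP1 and -0.89 for TAT2. For msb2 knockout cells it was 3.0 for GAP1, -1.31 for TAT2 and 1.32 for PTR2.

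The pRS316 effect minus that of pRS313 was 2.32 for GAP1 and 0.79 for DIP5, and the STE11-4 effect minus that of pRS313 was -2.01 for BAP3, a call lost without array C of STE11-4 SD liquid (adjusted p = 0.182). On SG, the PGAL1-FLO11 effect minus that of wild-type was -2.66 for GAP1, -2.50 for TAT2, -4.01 for DIP5, -1.34 for GNP1, -2.09 for PTR2 and -0.99 for HIP1. Without array C of wild-type SG liquid the GNP1 and HIP1 values were -0.61 and -0.43 (adjusted p = 0.0408 and 0.201), and on the arrays of that comparison alone their adjusted p was 0.132 and 0.159. In fits without 1 array, calls were lost in 11 of 12 for BAP2 in tec1 knockout cells and for DIP5 between pRS316 and pRS313, in 8 for BAP3 in Kss1K42R, in 4 for DIP5 in tec1 knockout and PTR2 in msb2 knockout cells, in 3 for TAT2 in pRS316, in 2 for GAP1 in Kss1K42R, and in 1 each for AGP1 in Kss1K42R and GAP1 in flo11 knockout cells.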

How the results depend on the processing

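No value passing the test changed sign under quantile normalisation, median centring or leaving out each array. None did so in the other runs either, but these were little or no test of the sign. Each of the 10 permeases has 1 probe set, so the mean of several probe sets returned the same values. A filter on dim genes, which kept 176 of the 217 passing values, does not alter a difference of group means. Neither does fitting the arrays of each comparison alone, nor the replicate letter as a block where both groups hold the same letters. These runs bear on which values pass. Of 217 passing values, 146 passed in every fit without 1 array and 71 were lost in at least 1. The 217 and the 146 both include the BAP2 and PTR2 values that are left untested above because they chose the genes. In this paragraph every count includes PTR2 and BAP2, and strains against control are the 11 comparisons between strains given above. Fitted on the arrays of each comparison alone, the permeases passing were 3 for gelatin against liquid, 0 for agar against gelatin, 7 for SLAD against SD on agar, 8 for SG against SD on agar, 7 for 6 h against 0 h on agar, and 35 for strains against control on SD agar. Leaving out 1 array gave 3 to 7 for agar against gelatin, 0 to 0 for SLAD against SD on agar, and 5 to 8 for SG against SD in liquid. The replicate block left 34 calls for strains against control in SD liquid and 14 on SD agar. It ended the calls of PTR2 between SG and SD liquid in cells labelled PGAL1-FLO11 (adjusted p = 0.0523) and of TAT2 between pRS316 and pRS313 in SD liquid (adjusted p = 0.0517), and gained 2. Quantile normalisation ended 14 calls, among them BAP2 and PTR2 between SG and SD agar in cells labelled PGAL1-FLO11 (adjusted p = 0.476 and 0.851), and gained 10. The causes were not tested. Signal near background limits BAP3, and the top of the scale limits GAP1 and DIP5 in SLAD liquid.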

Other observations

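BAP2 and TAT1 are next to each other in the RefSeq yeast annotation. Over the 29 group means their levels had a Pearson r of -0.09, given as a description without a test.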
